A study of Mus musculus with 10 samples.

Results

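The control left atria of this mouse study were described here: 5 of its 10 RNA-seq libraries, chosen by their titles alone. Libraries CTL1, CTL2 and CTL3 came from vehicle-treated adult mice, and libraries WT35 and WT338 from untreated adult wild-type mice. The other 5 libraries came from mice given ibrutinib (IBR, 3 libraries) and from mice labelled as having a cardiac knockout of Csk (KO, 2 libraries). CTL and IBR are told apart by treatment and WT and KO by genotype, and these pairs are taken here as 2 experiments. Each difference between CTL and WT is then also a difference between experiments, and vehicle, animals, handling and library batch cannot be told apart. The vehicle, strain, age beyond adult and sex are not given in the labels, nor is it said whether WT mice were littermates of the KO mice.

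The atria are the thin-walled receiving chambers of the heart. Their muscle cells contract with their own myosin light chains, store and release atrial natriuretic peptide, which promotes salt and water loss through the kidney, and repolarize with potassium channels that differ from those of the ventricle. The left atrium receives blood from the lungs and is a main site of atrial fibrillation. Around the muscle cells lie endothelium, endocardium, fibroblasts, epicardium, nerves and resident macrophages, all of which contribute RNA to a whole-tissue library.

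Each control library held between 15516058 and 19960947 reads counted on genes. Levels are given as CPM, the share of a library's gene counts taken by a gene, scaled between libraries by trimmed mean of M values. On this scale 3 reads make 0.15 to 0.193 CPM. A log2 difference is WT minus CTL with its standard error (SE), so a negative value is lower in WT. A gene is called where its p, adjusted over all genes tested by Benjamini-Hochberg, lay under 0.05 in edgeR's quasi-likelihood test. Spearman correlations over 14514 genes were 0.983 to 0.988 within CTL, 0.985 between both WT libraries and 0.943 to 0.962 between the groups. Reads without a unique position took 19.2% to 27.4% of the records in CTL and 13.8% to 14.7% in WT. Whether each library stands for its own mouse is not stated, and the tests therefore rest on the spread among these 5 libraries, which may in part be technical. The Y-linked Ddx3y stood at 123 to 232 CPM in all 5 libraries, and Xist, the RNA of the inactive X chromosome, at 2.19 CPM or less.

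Markers of atrial muscle were high in all 5 libraries. Myl7, the atrial regulatory myosin light chain, stood at 8512, 7847 and 5423 CPM in CTL1, CTL2 and CTL3 and at 4433 and 4738 CPM in WT35 and WT338. Myl4, the atrial essential light chain, stood at 9711, 10519 and 7555 CPM and at 7658 and 6264 CPM in the same order. Nppa, which encodes atrial natriuretic peptide, stood at 5991, 5981 and 4926 CPM and at 4331 and 4003 CPM. Sln (sarcolipin, the atrial inhibitor of the sarcoplasmic calcium pump) and Actc1 (cardiac actin) were both within the first 36 genes of either group. Of a list of 11 ventricular markers, Pln, the phosphoprotein that restrains the calcium pump, stood at 3215 to 4802 CPM in the control libraries, and Lbh at 35.8 to 76.1 CPM. Myl3 and Myh7 are given with the filament genes, and the other 7 reached at most 4.66 CPM. Among those 7, Myl2, the ventricular regulatory light chain, stood at 0.593, 3.01 and 0.631 CPM in CTL and at 0.142 and 0.54 CPM in WT. The ventricular repressor Hey2 reached at most 1.09 CPM in any control library.

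The promoter of Nppa is shown because it drives the marker by which atrial muscle is best known. The sequence is RefSeq's, from the plus strand of GRCm38.p6 at chr4:148000622-148000721, and ends at the base before the annotated start. Capitals mark the motif TATAAA, found on either strand in the 250 bases upstream of 13% of 27025 mouse genes. It lies close to the annotated start, and whether it acts as the TATA box of that start was not tested.
Nppa: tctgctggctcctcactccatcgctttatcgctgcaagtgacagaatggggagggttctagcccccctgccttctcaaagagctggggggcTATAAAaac

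Ranked by CPM, genes of contraction, calcium cycling and respiration led all 5 libraries. Myh6, the fast cardiac myosin heavy chain, was first in both groups, at 42044, 28940 and 40911 CPM in CTL and 35051 and 32571 CPM in WT. Atp2a2, the pump that returns calcium to the sarcoplasmic reticulum, was second in both, at 29684 ± 2348 CPM in CTL (SD, n = 3) and 24920 and 23949 CPM in WT. The third gene in both groups was not a muscle filament or pump gene. It was Pam, at 18726 ± 1548 CPM in CTL and 15066 and 15019 CPM in WT, which encodes the enzyme that amidates secreted peptides and is a major membrane protein of atrial secretory granules. Its 5 values spread by less than those of Myh6, whose lowest library was CTL2.

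After these came Actc1, Tnnt2 (cardiac troponin T), Myl4, the oxygen store Mb (myoglobin), Atp5b (a catalytic subunit of ATP synthase) and Myl7, all within the first 10 genes of both groups. Ttn, the giant spring protein titin, ranked 4 in WT and 20 in CTL and was the 1 gene of the WT first 10 that CTL did not share. Slc25a4, the mitochondrial carrier that exports ATP, held the tenth CTL place and ranked 18 in WT. The 10 highest genes took 13.1% to 14.4% of all gene counts in CTL and 12.4% to 12.8% in WT, and the 100 highest took 29.4% to 31.3% and 27.1% to 28.3%.

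**Figure D1:**
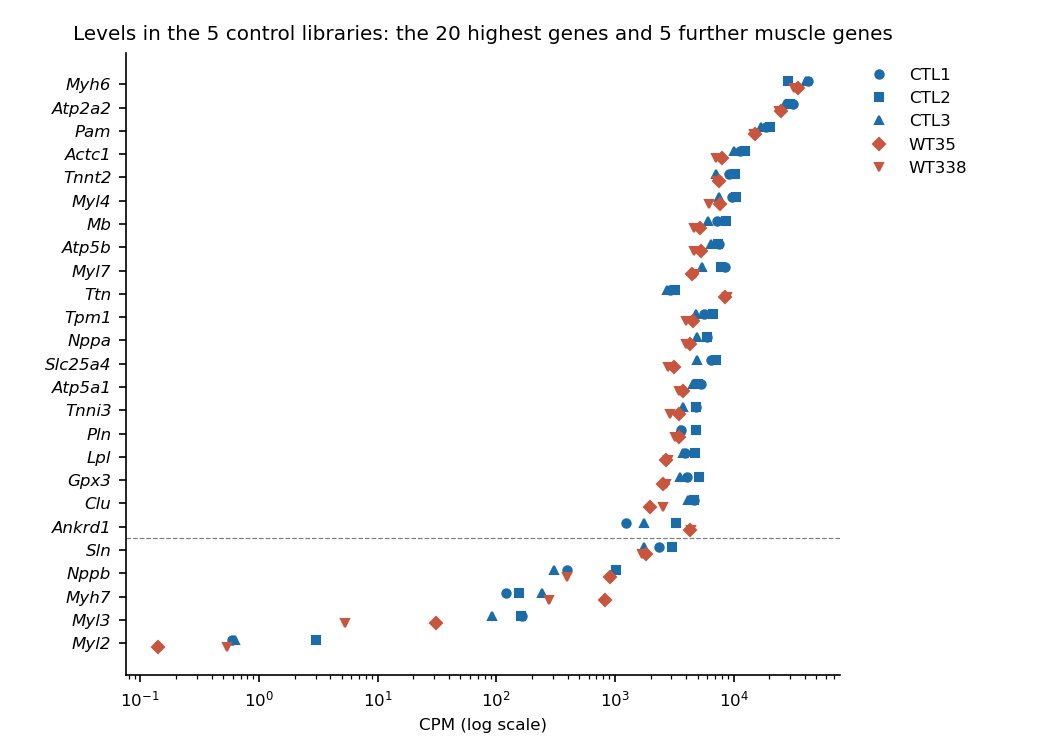
CPM (horizontal axis, log scale) of the 20 genes highest by the mean of both groups and, under the dashed line, of 5 further muscle genes, with a symbol for each of the 5 control libraries (blue CTL, red WT). Myh6 leads at 28940 to 42044 CPM, the WT symbols of Ttn lie to the right of all CTL symbols, and Myl2 lies at 3.01 CPM or less.

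CPM gives long transcripts more reads per molecule, so levels of different genes were compared per kilobase of exon. The length was that of all annotated exons of a gene merged, which can exceed the transcript that is made. The order per kilobase therefore rests in part on the annotation. Myl4, for example, was given 4637 bases and stood at 1749 CPM per kb, while Myl7 was given 590 bases. On that scale Myl7 was the highest protein-coding gene, at 10039 CPM per kb averaged over both groups. It was followed by Actc1 at 5822, Nppa at 5665, Myh6 at 5286, Atp2a2 at 4450 and Mb at 4115 CPM per kb. The secreted peptide Nppa thus stood beside the main filament proteins per unit length. In CTL it lay above the myosin heavy chain Myh6, which carries more reads, at 6512 against 5545 CPM per kb. The order was reversed in WT, with Myh6 at 5027, Nppa at 4818 and Actc1 at 4666 CPM per kb. Ttn, whose transcript is the longest of these, stood at 49.6 CPM per kb. Other short messages near the top were Slc25a4 at 1939, the secreted peroxidase Gpx3 at 1888, Tnni3 (cardiac troponin I) at 1859 and Sln at 1575 CPM per kb.

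A short RNA with no coding sequence stood above Myl7 in the ranking per kilobase in CTL alone. Gm23935, a 57-base gene of the annotation, had 1752, 2803 and 1615 CPM in CTL and 62.2 and 28.5 CPM in WT (log2 -5.50, adjusted p = 0.00144), a log2 difference of -2.99 with the trend on length and GC content described below removed. Its rank by CPM was 39 in CTL and 4073 in WT. Lars2, which encodes a mitochondrial leucyl-tRNA synthetase, moved the same way, at 1498, 2328 and 1302 CPM against 371 and 191 CPM (log2 difference -2.60, SE 0.37, adjusted p = 0.00412). Among the controls both genes were highest in CTL2, where the share of reads without a unique position was also highest, at 27.4%. Over all 10 libraries both were highest in IBR2, with Gm23935 at 9022 CPM, and there that share was 17.9%, below all CTL libraries.

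Tnnc1, cardiac troponin C, which every heart muscle cell needs, could not be read from these files. It had 1 count in all 3 CTL libraries together and none in WT. In the GENCODE annotation it lies inside Nisch on the other strand, and the counting ignored strand, so it is only said to be listed at or near 0. Pln, Cox6a2 and Aldoa also lie inside another gene, and reads of such pairs cannot be told apart without strand.

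Several genes that set the atrial action potential and its calcium signal were not called between the groups. Kcnj3 and Kcnj5, the 2 subunits of the acetylcholine-activated potassium channel by which the vagus slows the atrium, stood at 913 ± 95.3 and 416 ± 44.9 CPM in CTL (SD, n = 3). In WT they stood at 980 and 1006 CPM and at 368 and 386 CPM, and neither was called different (log2 0.12 and -0.14, adjusted p = 0.553 and 0.475). Ryr2, the calcium release channel, stood at 2788 ± 327 CPM in CTL and at 3764 and 3511 CPM in WT (log2 0.38, adjusted p = 0.0932). Casq2, which binds calcium inside the reticulum, stood at 1594 ± 161 CPM and at 1217 and 1315 CPM (log2 difference -0.33, adjusted p = 0.126). Corin, the protease that activates the Nppa product, stood at 636 ± 53.9 CPM in CTL and at 656 and 717 CPM in WT (log2 0.11, adjusted p = 0.578). Gja1 and Gja5, the connexins through which atrial cells conduct, were not called either, at log2 -0.29 (SE 0.27) and -0.11 (SE 0.19). These p-values do not show that the levels were equal.

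The sharing of ranks was counted at 6 depths. Of the first 10 genes by CPM, 9 were common to both groups, of the first 20, 18, of the first 50, 41 and of the first 100, 77. Of the first 500 and 1000, 395 and 808 were common. Per kilobase the counts were 8, 16, 40, 82, 405 and 826. In all, 12209 genes reached 1 CPM in every control library, 1432 reached 100 CPM and 58 reached 1000 CPM.

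Below the first ranks, the 2 control groups differed widely. In edgeR's test 4672 of 14514 genes were called, or 32.2%. Of these 2286 (15.8%) were higher in WT and 2386 (16.4%) lower. A difference of 2-fold or more was called for 1877 genes (12.9%), of which 1151 were higher and 726 lower. The CTL and WT libraries did not overlap for 8716 genes (60.1%). The median log2 difference of all genes tested was 0.01, with quartiles at -0.42 and 0.48, and scaling by library totals moved that median to 0.16. With library totals 2884 genes were higher and 1532 lower, so 65.3% of the calls were higher against 48.9% with the main scaling. The number of calls rested on the libraries used, as it was 2248 without CTL1, 2430 without WT35 and 1728 without WT338, and calls of 2-fold or more were 1228 without CTL1 and 1124 without WT338. With library totals 75.1% of the 2-fold calls were higher, against 61.3%.

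**Figure D2:**
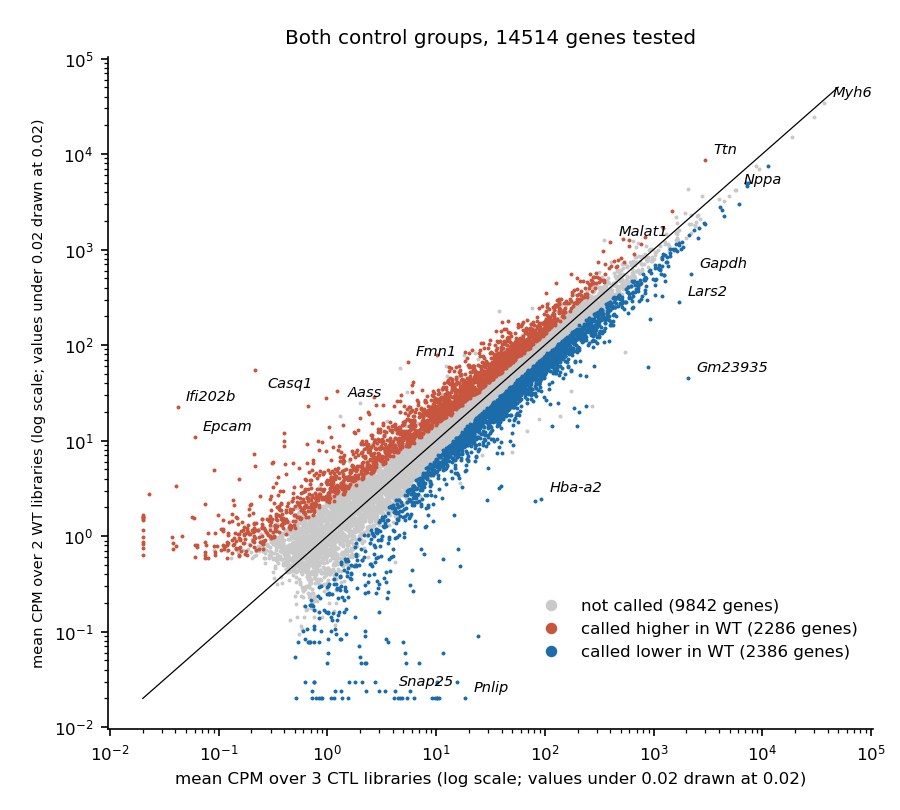
Mean CPM over the 3 CTL libraries (horizontal) against mean CPM over the 2 WT libraries (vertical), both on log scales, for the 14514 genes tested, each a point, with the line of equal levels. Red points (2286) were called higher in WT and blue points (2386) lower, and the highest genes, such as Myh6, lie near the line.

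The same 2 experiments can be compared a second time through their other libraries, KO minus IBR, which share no library with WT minus CTL and differ also by drug and genotype. In that comparison 5338 of 14861 genes (35.9%) were called. Of the genes called between WT and CTL, 4575 had a value there. Of these, 4427 (96.8%) lay on the same side of 0, 3128 (68.4%) were called on the same side and 10 on the opposite side. Of the 9672 genes not called between the controls, 7168 (74.1%) lay on the same side.

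The difference between the groups ran with gene length and base composition. The median log2 difference was -0.31 over the 661 genes with under 1 kb of exon and 0.30 over the 2499 genes with over 8 kb. It was 0.37 over the 823 genes with the lowest GC content (under 40%) and -0.64 over the 585 genes with the highest (over 60%). In that last class 46.8% of genes were called lower in WT and 1.88% higher. Once a smooth trend on length and GC was taken out of the counts, the medians of all classes lay between -0.11 and -0.00, and 3198 of 14136 genes (22.6%) were called, 1490 higher (10.5%) and 1708 lower (12.1%). Of those, 2541 were among the calls without that step. Values with this trend removed are given beside the genes whose call below they end, or whose fold difference they move by over 1.5 times. The part of the trend that comes from the RNA or library preparation and the part that comes from the tissue cannot be told apart.

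**Figure D3:**
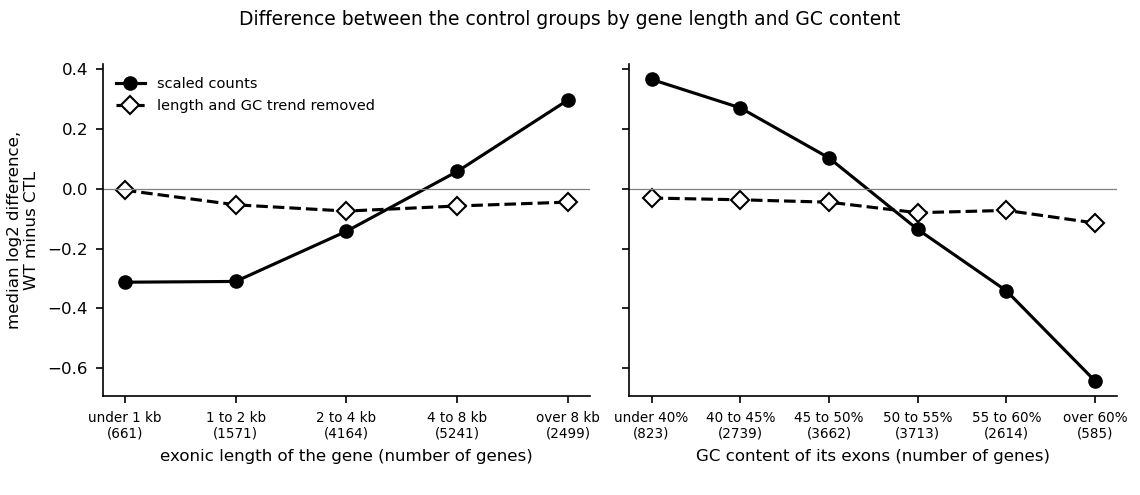
Median log2 difference, WT minus CTL, in 5 classes of exonic length (left) and 6 classes of GC content (right), with the number of genes in each class in parentheses. Filled points (scaled counts) run from -0.31 to 0.30 with length and from 0.37 to -0.64 with GC content, and open points (trend removed) lie between -0.11 and -0.00.

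Some of the highest genes changed places between the groups. Ttn stood at 2891, 3220 and 2726 CPM in CTL and at 8420 and 8855 CPM in WT, with no overlap (log2 1.55, SE 0.15, adjusted p = 0.00126). With the length and GC trend removed its difference was 0.72, the adjusted p then being 0.0163. Malat1, a long nuclear RNA, stood at 379, 413 and 401 CPM against 1276 and 1130 CPM and climbed from rank 353 to 59 (log2 1.60, SE 0.13). Akap12, a scaffold of protein kinases, stood at 131, 127 and 123 CPM against 466 and 426 CPM (log2 difference 1.81, SE 0.12) and climbed from rank 1488 to 255. Adamts1, a matrix protease, was 3.39-fold higher in WT. All WT values of these 4 genes lay above all CTL values. The CTL libraries varied little among themselves for Akap12 and Malat1, with SDs of 4.17 and 17.5 CPM.

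Among the genes that lost places in WT, Gapdh, the glycolytic enzyme often used as a reference gene, went from rank 32 to 180. It stood at 2321, 2302 and 2076 CPM in CTL and at 627 and 482 CPM in WT, a 4.03-fold difference (log2 -2.01, SE 0.18, adjusted p = 0.000983). Atp5g1, a subunit of the rotor of ATP synthase, stood at 1300, 1273 and 1022 CPM against 352 and 298 CPM (log2 difference -1.88, SE 0.18). Oaz1, which checks polyamine synthesis, stood at 407, 454 and 301 CPM against 116 and 105 CPM (log2 difference -1.81, SE 0.20). The genome holds near-identical processed copies of all 3 genes, whose reads can be split or dropped as not unique, so their levels are uncertain. The share of reads without a unique position differed between the groups as given above, and its part in these differences was not tested.

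The largest differences lay in genes that were nearly silent in 1 group. Ifi202b, an interferon-inducible DNA sensor of the mouse p200 family, had 0, 0.0685 and 0.0574 CPM in CTL and 15.6 and 29.4 CPM in WT. From its counts the ratio was 549 (95% interval 151 to 4538, which covers counting error only). Aass, the first enzyme of lysine breakdown, stood at 1.4, 1.1 and 1.2 CPM in CTL and 35.3 and 30.8 CPM in WT (26.5-fold, log2 4.73, SE 0.19, adjusted p = 0.000126). Casq1, the calsequestrin of fast skeletal muscle, stood at 1.02, 1.03 and 0.86 CPM in CTL and 39.7 and 16 CPM in WT (28.6-fold, log2 4.84, SE 0.41).

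Fmn1, an actin-nucleating formin, stood at 3.72, 7.19 and 5.45 CPM in CTL and 67.9 and 65.7 CPM in WT (12.3-fold, log2 3.62, SE 0.24). Epcam, an adhesion protein of epithelia, had 0.0539, 0.0685 and 0.0574 CPM against 4.84 and 16.8 CPM, a count ratio of 171 (95% interval 58 to 832). Tlr8, a sensor of RNA in phagocytes, Gdpd3, an enzyme of lysophospholipid breakdown, and Adh6b, an alcohol dehydrogenase, were 13.9-fold, 18-fold and 13.2-fold higher in WT. These 8 genes were chosen for the size of their difference, so their calls add nothing to it. Casq1 differed between WT35 and WT338 by a larger factor than between any of the CTL libraries. Epcam had 3 counts over all CTL libraries, too few to read its spread there.

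Muscle genes differed by less. Of 19 tested atrial muscle genes 7 were called lower in WT and 1 higher, where 16.4% and 15.8% of all genes were, with a median of -0.44 on the log2 scale and 13 members whose groups did not overlap, beside 60.1% of all genes. When CTL1, CTL2, CTL3, WT35 or WT338 was left out, the members called lower numbered 3, 5, 9, 2 and 1. Stard10, a lipid transfer protein, was 2.05-fold lower in WT, at 1359, 1625 and 1122 CPM against 696 and 636 CPM (log2 difference -1.04, SE 0.19, adjusted p = 0.00643), and was not called without WT338 (adjusted p = 0.0535). Actc1 and Myl7 were called at log2 -0.58 (SE 0.16, adjusted p = 0.0309) and -0.66 (SE 0.21, adjusted p = 0.0453). Without CTL1, CTL2, WT35 or WT338 neither was called, with adjusted p from 0.0707 to 0.207, and Myl7 in CTL3 lay nearer to WT than to the other CTL libraries. With the length and GC trend removed, adjusted p was 0.162 for Actc1 and 0.401 for Myl7. Myl4, Sln and Nppa were not called, with log2 differences of -0.41, -0.44 and -0.43 (adjusted p = 0.134, 0.175 and 0.0689), and Nppa had a difference of -0.01 without the trend.

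Of 27 genes of the thick and thin filaments and Z-disc, 3 were called higher and 4 lower, with a median of -0.20, shares no larger than the 15.8% and 16.4% of all genes. Without CTL1, CTL2, CTL3, WT35 or WT338 these counts were 1 and 0, 3 and 3, 2 and 8, 1 and 1, and 4 and 0, and with the length and GC trend removed 1 and 0. Myh7, the slow myosin heavy chain that the fetal and stressed heart uses, was higher in WT, where it stood at 822 and 278 CPM, than in CTL, at 122, 155 and 244 CPM (log2 difference 1.66, adjusted p = 0.0469). Its call was lost without CTL1, CTL2, CTL3 or WT35 (adjusted p of 0.105, 0.117, 0.112 and 0.194) and with the length and GC trend removed (adjusted p = 0.061), and WT338 lay close to CTL3. Myl3, the ventricular essential light chain, stood at 164, 160 and 92.7 CPM in CTL and 31 and 5.34 CPM in WT (log2 -2.92, SE 0.81, adjusted p = 0.0509). Nppb, the second natriuretic peptide and a stretch-responsive gene, ranged from 306 to 1024 CPM in CTL and stood at 903 and 395 CPM in WT, so the groups overlapped (log2 0.17, SE 0.62). Ankrd1, another stretch-responsive gene, stood at 1250, 3287 and 1743 CPM against 4305 and 4394 CPM and was not called (adjusted p = 0.0661).

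More channel genes were called lower in WT than higher. Of 24 potassium, sodium and pacemaker channel genes 9 were called lower, 3 higher and 12 not, with a median of -0.17, where 16.4% of all genes were called lower and 15.8% higher. With the length and GC trend removed 4 were lower and 3 higher, where 12.1% and 10.5% of all genes were. Of the 24 differences 11 were positive. Without WT35 and WT338 the median was -0.14 and -0.22. When CTL1, CTL2 or CTL3 was left out, 7, 8 and 8 were called lower and 2, 3 and 3 higher. Kcnk3, the acid-sensitive background potassium channel of the atrium, stood at 1176, 1078 and 897 CPM in CTL and at 513 and 472 CPM in WT (log2 -1.09, SE 0.16, adjusted p = 0.00393). Kcnh2, the rapid delayed rectifier, stood at 389, 317 and 378 CPM against 150 and 154 CPM (log2 difference -1.25, SE 0.15). Kcnj2, the main inward rectifier that holds the resting potential, stood at 67.8, 51.8 and 45.7 CPM against 14.8 and 24.1 CPM (log2 difference -1.51, SE 0.26). These 3 channels carry repolarizing or resting current, and each group of values stood apart from the other.

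In the other direction, Abcc9, the regulatory subunit of the ATP-sensitive potassium channel, stood at 29.1, 24.7 and 33.3 CPM in CTL and at 71.4 and 62.7 CPM in WT (log2 1.21, SE 0.16). Kcna5, the ultrarapid delayed rectifier that marks atrial muscle, was low in both groups, at 6.84, 9.59 and 6.42 CPM and at 13.4 and 19.2 CPM (log2 difference 1.10, adjusted p = 0.0133). It was not called without CTL1 or WT338 (adjusted p of 0.0573 and 0.105). Among the calcium channels, Cacna1h, a T-type channel, was lower in WT at 181 and 177 CPM against 450, 416 and 400 CPM (log2 difference -1.24, SE 0.13, adjusted p = 0.00171). Kcnk3, Kcnh2, Kcnj2, Abcc9 and Cacna1h were called in each alternative run.

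Of 24 cardiac transcription factors 5 were called lower and none higher, near the 16.4% of all genes called lower, with a median of -0.22. With the length and GC trend removed 7 were called lower and none higher, where 12.1% of all genes were called lower. The median was then -0.31. In scaled counts 7 of the 24 differences were positive, and without WT35 and WT338 the median was -0.22 and -0.29. When CTL1, CTL2 or CTL3 was left out, 4, 5 and 5 were called lower and 0, 1 and 1 higher. Gata4, which switches on many heart muscle genes, stood at 214, 213 and 210 CPM in CTL and 124 and 123 CPM in WT (log2 -0.78, SE 0.12, adjusted p = 0.00407). Nkx2-5, its partner in the embryonic heart, stood at 135, 159 and 136 CPM against 58.5 and 57.8 CPM (log2 difference -1.30, SE 0.13). With the length and GC trend removed its difference was -0.38 and its adjusted p 0.057, so that call was lost. Tbx5, a T-box factor of the atria, was 1.77-fold lower (adjusted p = 0.0129) and was not called without WT35 or WT338 (adjusted p of 0.0612 and 0.0823).

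Genes of energy metabolism were lower in WT. Of 47 oxidative phosphorylation genes 29 were called lower and none higher, where 16.4% of all genes were called lower, and every member had a negative difference, with a median of -0.67. The summed genes of this list took 4.54%, 4.53% and 3.9% of gene counts in CTL and 3.26% and 2.85% in WT. The members called lower without CTL1, CTL2, CTL3, WT35 or WT338 numbered 13, 19, 40, 18 and 9, and with the length and GC trend removed 17, with a median of -0.44. Ndufs3, a core subunit of complex I, stood at 362, 386 and 289 CPM in CTL and 144 and 139 CPM in WT (log2 -1.29, SE 0.16, adjusted p = 0.00253). Cox6a2, the muscle form of a complex IV subunit, stood at 1332, 1360 and 1048 CPM against 606 and 490 CPM (log2 difference -1.19, SE 0.18). Slc25a4, which hands the ATP made by the chain to the cell, stood at 6431, 7065 and 4903 CPM against 3158 and 2826 CPM (log2 difference -1.04, SE 0.19) and was not called without WT338 (adjusted p = 0.0633).

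Genes that take up and burn glucose were lower in WT as well. Of 21 genes of glucose uptake and glycolysis 17 were called lower, beside 16.4% of all genes, and none higher, with a median of -0.78. For 19 members the groups did not overlap, beside 60.1% of all genes. Without CTL1, CTL2, CTL3, WT35 or WT338 the members called lower numbered 14, 16, 18, 14 and 9, and with the trend removed 13. Slc2a4, the insulin-regulated glucose transporter, stood at 612, 539 and 519 CPM in CTL and 293 and 269 CPM in WT (log2 -0.99, SE 0.14, adjusted p = 0.00365). Pgk1, the first enzyme of glycolysis to yield ATP, stood at 376, 368 and 316 CPM against 118 and 96.7 CPM (log2 difference -1.72, SE 0.16), and Eno1 (enolase) was 2.63-fold lower. Both have processed copies in the genome, and like Gapdh are uncertain in level.

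Fatty acid use, the main fuel supply of heart muscle, was less uniform. Of 32 genes 10 were called lower and 2 higher, beside 16.4% and 15.8% of all genes, with a median of -0.30. Without CTL1 and WT338 6 and 5 were lower. Fabp3, the carrier of fatty acids in heart muscle, stood at 1020, 1121 and 926 CPM in CTL and 372 and 290 CPM in WT (log2 -1.63, SE 0.17, adjusted p = 0.00162). Hadhb, a subunit of the trifunctional enzyme of beta oxidation, was 2.08-fold lower, at 461 and 361 CPM against 856 ± 29 CPM (SD, n = 3). Mlycd, which removes the malonyl-CoA that blocks fatty acid entry into mitochondria, was 2-fold lower in WT, with an SE of 0.15 on the log2 scale. The whole list took 1.61%, 1.79% and 1.66% of gene counts in CTL and 1.64% and 1.43% in WT, so its summed share overlapped between the groups.

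Cytosolic ribosomal protein genes were lower as well, with 23 of 34 called lower, beside 16.4% of all genes. None was called higher and the median was -0.64. When CTL1, CTL2, CTL3, WT35 or WT338 was left out, the members called lower numbered 10, 15, 31, 12 and 6, and with the length and GC trend removed 16. Rpl3 stood at 453, 422 and 331 CPM in CTL and 174 and 161 CPM in WT (log2 -1.27, SE 0.17, adjusted p = 0.0029), and Rps29 was 3.12-fold lower (log2 -1.64, SE 0.16). Each of these genes has many processed copies. Of 38 tested pseudogenes named after ribosomal protein genes, 12 were called higher and 10 lower, with a median of -0.41. The part of such copies in the differences of the ribosomal protein genes was not tested.

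**Figure D4:**
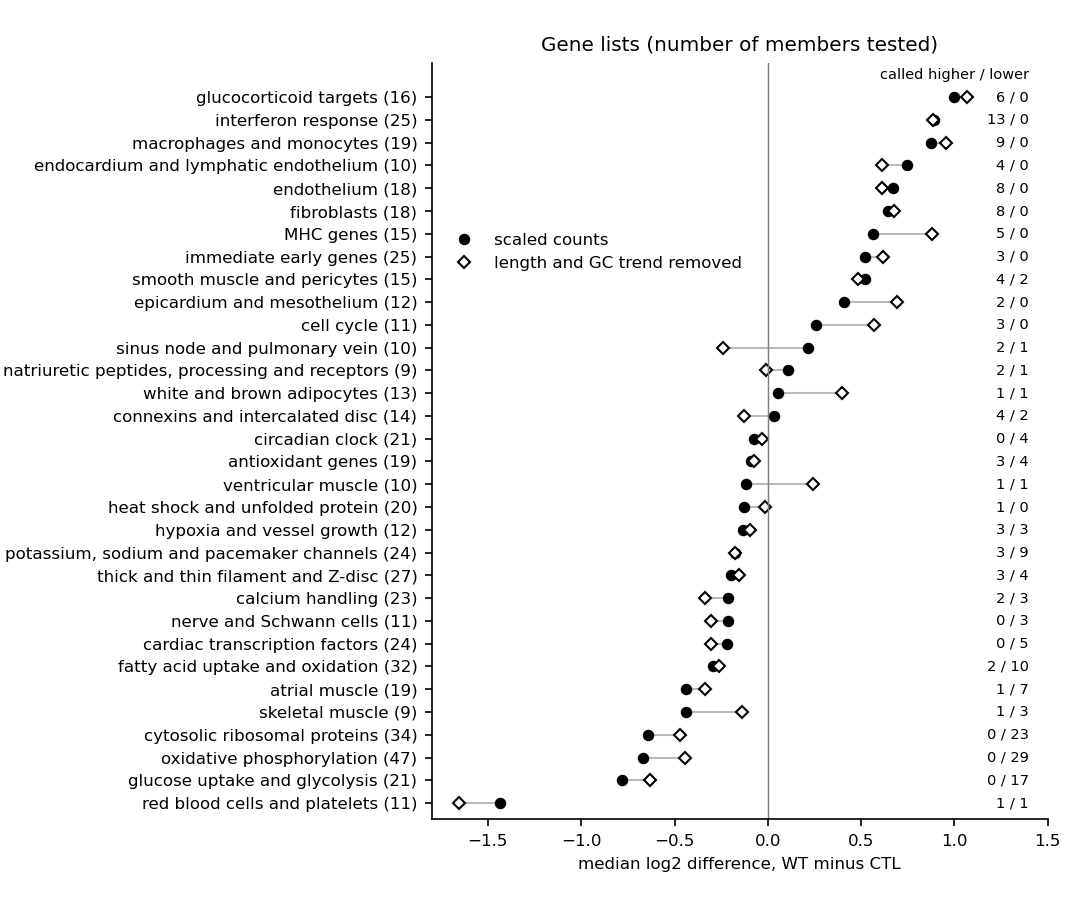
Median log2 difference, WT minus CTL, of each gene list with 9 or more tested members (number in parentheses), as filled points for scaled counts and open points with the length and GC trend removed. The numbers at the right count the members called higher and lower, and range from 13 and 0 for the interferon response to 0 and 29 for oxidative phosphorylation.

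Genes of the interferon response stood higher in WT. Of 25 tested members 13 were called higher, none lower, where 15.8% of all genes were called higher. All 25 differences were positive with a median of 0.89, and the median was also 0.89 with the length and GC trend removed. The members called higher without CTL1, CTL2, CTL3, WT35 or WT338 numbered 7, 11, 18, 8 and 6. The promoters of 4 called members are shown because each holds the interferon-stimulated response element, taken here as GAAA, any 2 bases and GAAA again, and searched on both strands in the 250 bases upstream of the start. They are RefSeq sequences of GRCm38.p6, given in the direction of the gene, and capitals mark the matches, of which Gbp3 and Bst2 have 2 that overlap. Gbp2 lies at chr3:142620563-142620662, Gbp3 at chr3:142559944-142560043 and Gbp7 at chr3:142530236-142530335 on the plus strand, and Bst2 at chr8:71537473-71537612 on the minus strand.
Gbp2: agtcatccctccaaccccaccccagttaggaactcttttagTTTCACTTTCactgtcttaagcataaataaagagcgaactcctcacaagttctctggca
Gbp3: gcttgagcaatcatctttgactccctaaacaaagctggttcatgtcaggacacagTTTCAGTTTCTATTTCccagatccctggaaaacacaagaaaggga
Gbp7: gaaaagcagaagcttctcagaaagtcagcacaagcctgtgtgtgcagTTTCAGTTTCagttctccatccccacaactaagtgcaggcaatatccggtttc
Bst2: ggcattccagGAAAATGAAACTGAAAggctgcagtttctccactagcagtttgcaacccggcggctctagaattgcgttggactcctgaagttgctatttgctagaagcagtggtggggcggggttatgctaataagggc

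Promoters were matched for 19 of the 25 members, and the element was found in 10 of them (52.6%) and in 821 of all 27025 (3.04%). It was held by 4 of 10 called members (40%) and by 6 of 9 members that were tested and not called (66.7%). Gbp2, a guanylate-binding protein that attacks the vacuoles of pathogens, stood at 26.2, 14.4 and 24.5 CPM in CTL and 51.5 and 70.6 CPM in WT (log2 1.49, SE 0.26, adjusted p = 0.00634). Its family members Gbp3 and Gbp7 stood at 9.01 ± 1.94 and 12.9 ± 4.29 CPM in CTL (SD, n = 3) and at 17.2 and 19.9 CPM and 30.7 and 22.8 CPM in WT. Bst2, which tethers budding viruses to the cell, stood at 9.91, 12.6 and 13.2 CPM against 21.6 and 20.9 CPM (log2 difference 0.84, SE 0.17, adjusted p = 0.011). Gbp7 was not called without CTL1 or WT35 or with the length and GC trend removed (adjusted p of 0.0778, 0.13 and 0.098). Gbp3 was not called without WT338 (adjusted p = 0.0659), and Bst2 was not called without WT35 or WT338 (adjusted p of 0.0557 and 0.0559).

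Ifi44 and Oas2, an interferon-induced protein and a synthetase that activates RNA decay, were 4.78-fold and 4.24-fold higher in WT, from low levels. Ifi44 stood at 1.45, 0.959 and 1.72 CPM in CTL and 6.36 and 6.96 CPM in WT. Ifit3 and Isg15, among the genes most often used to read an interferon response, were not called, at log2 0.03 and 0.55. Of 15 MHC genes 5 were called higher, beside 15.8% of all genes, and none lower, with a median of 0.56. Without WT35 the median was 0.40. With the length and GC trend removed 8 were called higher, beside 10.5% of all genes. H2-T23, which encodes the ligand of an inhibitory receptor of natural killer cells, was 1.96-fold higher in WT (adjusted p = 0.0062). Reads of the MHC family can be split between near-identical members.

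Markers of macrophages were higher beside these genes. Of 19 tested macrophage and monocyte genes 9 were called higher, beside 15.8% of all genes, and none lower. All 19 differences were positive and the median was 0.87. Their summed level was 358, 369 and 436 CPM in CTL and 628 and 823 CPM in WT. Without CTL1, CTL2, CTL3, WT35 or WT338 the members called higher numbered 5, 5, 12, 6 and 4, and with the length and GC trend removed 14. Mrc1, the mannose receptor of resident macrophages, stood at 37.9, 35 and 48.3 CPM in CTL and 113 and 138 CPM in WT (log2 1.64, SE 0.17, adjusted p = 0.00147). Cd163, a scavenger of haemoglobin, and Adgre1 (F4/80) were 2.14-fold and 2.09-fold higher. Ccr2, Ly6c2 and Plac8, which mark recruited monocytes, lay at 1.52 CPM or less in each control library. In whole tissue, fewer cells of a type and less RNA per cell cannot be told apart, here and for the lists of cell types that follow. The part of the macrophages in the interferon and MHC differences was not tested.

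Fibroblast and endothelial markers were called higher in part, where 15.8% of all genes were called higher. Of 18 fibroblast genes 8 were called higher, none lower, with a median of 0.64 and summed levels of 2837, 2664 and 3984 CPM in CTL and 5773 and 5373 CPM in WT. Dcn, the proteoglycan decorin of the matrix, stood at 495, 459 and 615 CPM against 1344 and 1224 CPM (log2 difference 1.30, SE 0.16, adjusted p = 0.00252), and Pdgfra, the receptor that marks cardiac fibroblasts, was 2.58-fold higher. Col1a1, the main fibrillar collagen, was not called, with 78.5, 69.6 and 146 CPM in CTL and 103 and 94.2 CPM in WT (log2 difference 0.01, SE 0.31). Leaving out CTL1, CTL2, CTL3, WT35 or WT338 gave 4, 6, 10, 4 and 4 fibroblast genes called higher.

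Of 18 endothelial genes 8 were called higher, beside 15.8% of all genes, and none lower, with a median of 0.67. Their summed levels were 1611, 1885 and 2473 CPM in CTL against 2835 and 3170 CPM in WT. Ptprb, the phosphatase that restrains vascular receptor signalling, stood at 66.2, 91.8 and 105 CPM against 224 and 270 CPM (log2 difference 1.50, SE 0.20, adjusted p = 0.00278). Emcn (endomucin) and Tek (the angiopoietin receptor) were 2.51-fold and 2.6-fold higher, while Cldn5, the tight junction claudin of endothelium, differed by -0.19 (SE 0.20) and was not called. Leaving out CTL1, CTL2, CTL3, WT35 or WT338 gave 5, 7, 10, 8 and 4 endothelial genes called higher.

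Markers of the remaining cell types were not all on that side. Of all genes, 15.8% were called higher and 16.4% lower. The epicardial genes called higher and the smooth muscle genes called lower lay near those shares. Of 10 endocardial and lymphatic genes 4 were called higher and none lower, with 1 without CTL1, CTL2 or WT338. Of 12 genes of epicardium and mesothelium 2 were higher and none lower, and none was called without WT338. Smooth muscle and pericyte genes were called in both directions, with 4 higher and 2 lower of 15, and 1 higher and none lower without CTL1. Of 13 adipocyte genes 1 was higher and 1 lower. Of 11 genes of nerve and Schwann cells 3 were called lower and none higher, with a median of -0.21, 1 lower without WT338, and 2 higher and 4 lower without CTL2. The summed share of atrial muscle genes was 10.3%, 9.11% and 9.85% of gene counts in CTL and 8.69% and 8.38% in WT. Whether the muscle and non-muscle lists differ because of how much of each tissue was taken was not tested.

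Some genes that respond to glucocorticoids were higher in WT. Of 16 tested, 6 were called higher, beside 15.8% of all genes, and none lower. All 16 differences were positive, and the median was 1.00, or 0.62 without WT338. Their summed level was 1940, 4085 and 2237 CPM in CTL and 3896 and 4676 CPM in WT, so CTL2 lay inside the WT range. Ddit4, a stress-induced inhibitor of mTOR, stood at 9.32, 9.31 and 11.9 CPM in CTL and at 45.6 and 112 CPM in WT (7.72-fold, log2 2.95, SE 0.36, adjusted p = 0.00298). Errfi1, a feedback inhibitor of the EGF receptor, stood at 39.2, 44.6 and 53.9 CPM against 138 and 218 CPM (log2 difference 1.96, SE 0.21). Sgk1, a kinase that the hormone induces, was 1.96-fold higher and was not called without WT35 (adjusted p = 0.0588). When CTL1, CTL2, CTL3, WT35 or WT338 was left out, the members called higher numbered 5, 7, 5, 7 and 4. Immediate early genes, which rise within minutes of handling or stress, had 3 of 25 members called higher, a smaller share than the 15.8% of all genes, and a median of 0.52. Without WT35 that median was 0.05, with 4 called higher and 1 lower, and without CTL1 and CTL3 2 and 5 were called higher. Their summed level was 4805 CPM in WT35 and 2656 CPM in WT338, against 2647 to 2943 CPM in CTL.

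The CTL libraries also held RNA of pancreatic acinar genes, which an atrium is not known to make, and here CTL2 stood apart. A list of 21 pancreatic acinar genes, written after their values had been seen, summed to 81.7, 322 and 84.7 CPM in CTL and to 0.9 and 1.4 CPM in WT. Pnlip, pancreatic lipase, stood at 8.13, 37.5 and 9.69 CPM in CTL and had no count in WT, at least 216-fold lower against a floor of 3 counts over the group. Its call was lost without CTL3, WT35 or WT338 (adjusted p of 0.122, 0.0565 and 0.0585). Clps, the cofactor of that lipase, stood at 2.48, 8.83 and 3.15 CPM in CTL and had no count in WT. The 18 genes of this list that were tested passed the low-count filter through CTL alone and therefore had to differ, so their count is no further result. Hormones of the pancreatic islet summed to at most 0.4 CPM in any library and liver genes to at most 1.3 CPM.

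The 3 IBR libraries of the same experiment held the acinar enzymes as well, at 34.9, 118 and 40.8 CPM, and the libraries labelled KO did not, at 1.3 and 1.9 CPM. Genes of neurons, also listed after their values had been seen, summed to 23.6, 86.2 and 27.6 CPM in CTL and to 7.5 CPM in each WT library. Snap25, a protein of synaptic vesicle release, stood at 3.72, 19 and 4.82 CPM in CTL and had no count in WT, at least 107-fold lower. It passed the low-count filter through CTL alone and therefore had to differ. Its call, which was lost without CTL3 (adjusted p = 0.0875), is thus no further result. CTL2 exceeded CTL1 by a median of 3.56 for 17 acinar genes and 4.26 for 8 neuronal genes. IBR2 exceeded IBR1 by 3.57 and 3.65 for the same lists, so that both libraries numbered 2 of that experiment were the high ones. The source of the acinar and the neuronal RNA was not tested, and nerves are part of atrial tissue.

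**Figure D5:**
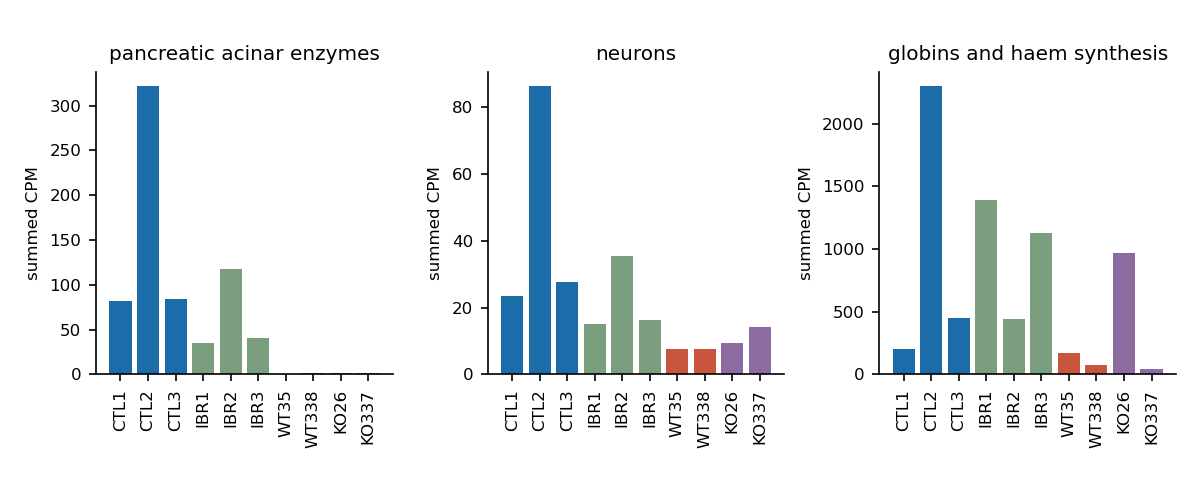
Summed CPM of 3 lists (vertical axes, linear, from 0) in each of the 10 libraries, as bars coloured by group. Acinar enzymes and neuronal genes peak in CTL2 (322 and 86.2 CPM) and IBR2 (118 and 35.3 CPM) and are low in WT and KO, while globins peak in CTL2 at 2298 CPM and follow another order elsewhere.

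Within CTL, globin genes were among the 8 genes of widest spread. Hbb-bs, the adult beta globin, stood at 101, 1336 and 190 CPM in CTL and at 117 and 50.8 CPM in WT, so CTL2 lay 13.2-fold above CTL1. The list of globins and haem synthesis summed to 202, 2298 and 450 CPM in CTL and 174 and 74.3 CPM in WT. Its order over libraries was not that of the acinar and neuronal genes, since IBR2 lay below IBR1 (439 against 1392 CPM). Pdk4, a kinase that turns heart muscle from glucose to fat, also varied, at 745, 2913 and 1146 CPM.

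Genes of widest spread within WT, named here because of that spread, were high in either library. Hspa1a, an inducible heat shock protein whose reads can be shared with its near-identical copy Hspa1b, stood at 35.4 CPM in WT35 and 0.42 CPM in WT338, and Atf3, an early stress factor, at 514 and 40.9 CPM. Xirp1, a repair protein of muscle cell junctions, stood at 2207 and 299 CPM, and Otud1, a deubiquitinase, at 459 and 28.9 CPM. In contrast WT338 had the higher levels of Socs3, a feedback inhibitor of cytokine signalling (178 against 18.7 CPM), of the metal-binding Mt2 (389 against 67.3 CPM) and of the pentraxin Ptx3 (106 against 8.02 CPM). With 2 libraries no test separates these differences from the spread of wild-type atria, and they set the width within which levels of such genes can be read.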

How the data were processed

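Libraries were made from poly(A)-selected RNA of mouse left atria with a kit that keeps strand, per the labels' protocols. The authors deposited a table of unnormalized read counts per gene for each library. The submitters' processing notes name STAR, HTSeq, edgeR and genome build mm9, while versions, annotation and read filters were not stated there. File names given by the authors say that strand was ignored in counting. Besides its 37583 genes, each table had 5 lines for reads left unassigned, and these were kept out of totals and tests. In the control libraries, reads in no feature were 13.5% to 19.9% of the records, ambiguous reads 3.14% to 3.99% and reads without a unique position 13.8% to 27.4%. The files held no mitochondrially encoded genes.

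Ensembl identifiers were matched to GENCODE vM21 for symbols, types and exonic lengths (32860, or 87.4%). Its build is not mm9, hence genes are given without coordinates, and promoters are RefSeq's on GRCm38.p6. Groups came from the titles. The 5 control libraries were fitted with edgeR 4.0.16 (limma 3.58.1, R 4.3.3): filterByExpr (minimum count 10, minimum total 15), TMM scaling with factors from 0.915 to 1.07, a mean per group and a robust quasi-likelihood fit with 3 residual degrees of freedom. "Called" means a Benjamini-Hochberg adjusted p under 0.05, and a standard error (SE) is the log2 difference over the square root of F. The 14514 genes tested held at least 99.9% of gene counts in each library. KO minus IBR was fitted in the same way on the other 5 libraries. Ranks used the mean CPM of each group, and CPM of the IBR and KO libraries were put on the scale of the controls. Tables and intervals were made in Python 3.11.15 (pandas 2.3.3, scipy 1.17.1).

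The 38 gene lists (653 genes, 647 found) and the choice of libraries were made with earlier results of these data known, and the lists of acinar, islet, neuronal, liver and globin genes were added after their values had been seen. Named genes were taken by rule. It took 12 heart genes always, the 20 highest by CPM and per kilobase, per direction the 12 called genes of largest difference and the 6 of highest level, the highest and most strongly called members of each list, the 8 genes of widest spread in each group, the 6 genes per direction that moved most in rank, and genes near 0 in 1 group. Some were left out for space, a few genes are not reported here, and Gbp3, Gbp7, Bst2 and Slc2a4 were added after their values had been seen. Alternatives were all 10 libraries in the fit, DESeq2 size factors, library totals, no filter, a CPM filter, DESeq2 1.42.0, limma-voom, each library left out, and, added after seeing the data, a loess trend (span 0.3) on length and GC removed. In counts simulated for WT minus CTL, 53 of 100 genes changed 2-fold and 94 of 100 changed 4-fold were recovered over 14231 genes, with 16 false calls. Only 200 genes were changed there, and no trend on length or GC was put in. These numbers therefore do not give the error rate of the 4672 calls in the data.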

Additional observations from a re-analysis of the deposited data

How the results depend on the processing

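The number of genes called between the control groups (4672) was 4152 with all 10 libraries in the fit, 4667 with DESeq2 size factors, 4416 with library totals, 5591 without a low-count filter, 4504 with a filter of 1 CPM in 2 libraries, 4856 with DESeq2, 4688 with limma-voom and 3198 with the length and GC trend removed. Leaving out 1 control library gave 1728 (without WT338) to 4989 (without CTL3), with 2248 without CTL1 and 2430 without WT35, where fewer libraries are tested and a lone WT library is assumed to vary like CTL. Calls of 2-fold or more (1877) ranged from 1124 (without WT338) and 1228 (without CTL1) to 2085 (without CTL3), and their share higher in WT was 75.1% with library totals against 61.3%. The 100 highest genes shared 76 to 78 when a library was left out, and 79 to 83 per kilobase. The genes on the same side in KO minus IBR numbered 4368 to 4460 when a library of that comparison was left out.

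Of 194 named genes that were called, 90 were called in all alternatives that tested them, and no called gene changed direction. Most calls were lost without WT338 (80), without WT35 (60) and without CTL1 (55), and the cause was not tested. The difference of Nppb, which was not called, changed sign without CTL1 (-0.04), CTL3 (-0.13) and WT35 (-0.54), and was 0.88 at its highest, without CTL2. No paired analysis was possible because CTL and WT share no replicate number. Experiment and group coincide in all 5 libraries, so no fit can part them. Genes at a few counts are limited by depth, and 2 WT libraries limit the precision of all others.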

Other observations

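Skeletal muscle markers did not move together between the control groups. Of 9 tested genes 1 was called higher in WT and 3 lower, where 15.8% and 16.4% of all genes were. Casq1 was the higher one, as given above. Atp2a1, the calcium pump of fast skeletal muscle, was lower in WT at 8.88 and 5.88 CPM against 34.2, 43.7 and 43.1 CPM in CTL (log2 -2.44, SE 0.22, adjusted p = 0.00119). Tnni2, the fast skeletal troponin I, stood at 17.5, 14.2 and 10 CPM in CTL and at 5.27 and 2.82 CPM in WT (log2 -1.77, SE 0.34). Casq1 and Atp2a1 serve the same store of calcium in fast fibres, and here they differed in opposite directions in all 5 libraries.

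Hypoxia and antioxidant genes were called in both directions. Of 12 hypoxia and vessel growth genes 3 were higher and 3 lower in WT, and without WT338 1 and 1. Car9, a carbonic anhydrase induced by low oxygen, stood at 5.87, 6.3 and 5.1 CPM in CTL and 24.6 and 15.2 CPM in WT (log2 1.79, SE 0.24). Vegfb, a growth factor tied to fatty acid uptake in heart vessels, was lower at 172 and 150 CPM against 406, 436 and 351 CPM (log2 difference -1.30, SE 0.15). With the length and GC trend removed its difference was -0.62 (adjusted p = 0.0222). Of 19 antioxidant genes 3 were higher and 4 lower, near the 15.8% and 16.4% of all genes. Without CTL1, CTL2, CTL3, WT35 or WT338 these counts were 2 and 1, 3 and 1, 3 and 6, 6 and 1, and 2 and 0. Srxn1 and Gclc, targets of the factor Nrf2, were 1.86-fold and 2.01-fold higher in WT and were called in all alternatives run.

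Immunoglobulin genes were called in both directions. Of 3 tested constant region genes 2 were called higher in WT and 1 lower, where 15.8% and 16.4% of all genes were. Of 6 tested genes of B and plasma cells 3 were called higher and 1 lower. Igkc, the kappa light chain of antibodies, stood at 0.162, 0.753 and 0.287 CPM in CTL, 2.47 CPM in WT35 and 15.1 CPM in WT338, and Ighm, the heavy chain of IgM, at 2.64, 5.34 and 6.31 CPM, 9.73 CPM and 50.7 CPM. Without WT338 neither was called (adjusted p of 0.0522 and 0.155). Neither was called without CTL3 (adjusted p of 0.0922 and 0.167) or with limma-voom (adjusted p of 0.0649 and 0.133). Ighm was not called without CTL1 or CTL2 (adjusted p of 0.0899 and 0.105) or with the length and GC trend removed (adjusted p = 0.0689). Ighg2c, a heavy chain of IgG, was lower in WT, at 7.31 and 10.7 CPM against 18.9, 20.2 and 16.7 CPM in CTL (log2 -1.05, SE 0.21, adjusted p = 0.00967), and was not called without WT35 (adjusted p = 0.0554).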
